A study of Mus musculus with 2 samples.

Results

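The mouse Schlafen genes measured here were 7 members of 1 cluster on chromosome 11, Slfn1, Slfn2, Slfn3, Slfn4, Slfn5, Slfn8 and Slfn9, each found by its symbol among the 24346 symbols of both expression tables. They were picked with their values in this comparison already known, so their ratios are descriptions and carry no test. RNA came from splenic CD4+ T cells sorted at day 14 from animals labelled HFD-MI, a setting that the series title places in remodelling after myocardial infarction. One library came from animals given probucol, a cholesterol-lowering antioxidant drug, and 1 from animals labelled untreated. The labels give no genotype, strain, age or number of animals for either group, and no dose or duration of probucol. Both file headers carry the word HypoE, which the labels leave unexplained and which both groups share. Levels are FPKM, fragments per kilobase of transcript relative to library size, so levels of different genes can be compared per length.

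Schlafen proteins occur in mammals as short, intermediate and long forms that share an amino-terminal core, and the long forms add a helicase-like part. Several members are induced by type I interferon, and the core of some members binds or cuts transfer RNA. In mouse T cells Slfn2 is needed to hold naive cells in quiescence, and it protects transfer RNAs from cleavage after activation. Slfn8 and Slfn9 are long mouse forms related to human SLFN11 and SLFN13, which act on transfer RNA and restrict viruses in human cells.

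The cluster spans 344 kb (mm10, the same assembly as GRCm38, chromosome 11, 82942341 to 83286726) and its members lie on both strands. In GENCODE release M21 the longest coding sequences were 1134 bp for Slfn2 and 1011 bp for Slfn1, the short forms, and 1920 bp for Slfn3 and 1806 bp for Slfn4, the intermediate forms. The long forms had 2652 bp for Slfn5 and 2730 bp for both Slfn8 and Slfn9. Slfn8 (83002158 to 83020810, minus strand) lies between Slfn9 (82978390 to 82991830, minus strand) and the transcribed pseudogene Slfn10-ps (83028130 to 83040042, minus strand). Their coding sequences are close: Slfn8 and Slfn9 were identical at 92.7% of 2730 aligned bases.

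The promoters of Slfn8 and Slfn9 are shown whole because these neighbours had similar start regions and ratios in opposite directions. Each window runs from 250 bases before to 50 bases after the annotated start (RefSeq, GRCm38.p6), and capitals mark the core of the interferon-stimulated response element, TTTC and TTTC with 2 bases between them, searched on both strands. The Slfn8 window is chr11:83020761-83021060 and the Slfn9 window chr11:82991781-82992080, both on the minus strand.
Slfn8: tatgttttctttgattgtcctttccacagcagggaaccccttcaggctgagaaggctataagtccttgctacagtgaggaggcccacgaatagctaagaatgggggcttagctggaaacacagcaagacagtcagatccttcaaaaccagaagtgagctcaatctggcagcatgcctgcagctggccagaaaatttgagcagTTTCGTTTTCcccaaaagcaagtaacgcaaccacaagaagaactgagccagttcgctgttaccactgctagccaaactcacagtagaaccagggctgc
Slfn9: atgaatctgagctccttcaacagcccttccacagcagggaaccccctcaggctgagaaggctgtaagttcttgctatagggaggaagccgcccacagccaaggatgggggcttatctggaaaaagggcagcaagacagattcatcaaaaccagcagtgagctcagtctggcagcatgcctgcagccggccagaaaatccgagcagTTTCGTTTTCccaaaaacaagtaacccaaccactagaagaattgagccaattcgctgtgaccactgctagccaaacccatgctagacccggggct

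Over 273 aligned bases these windows were identical at 241 (88.3%). The element core was the same 10 letters in both, starting 48 bases before the start of Slfn8 and 45 bases before that of Slfn9. A second RefSeq start of Slfn8 gives an overlapping window that holds the same element. Slfn5 also held 1 match, on the opposite strand and directly followed by a run of A. Of 32851 mouse promoter windows of this length, 3.44% held the core. The windows of Slfn1, Slfn2, Slfn3 and Slfn4 held none, which says only that these letters were not in those 300 bases. TTCNNNGAA, the gamma-activated site core, was in none of the members' windows and in 8.30% of all windows.

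The other 4 members lie side by side on the plus strand and shared a different string. The longest run of letters present in all 4 windows was ACTTCCTGG, which resembles the binding site of ETS factors and was chosen after the windows had been read. It occurred in 0.843% of all windows on either strand. The stretches below show it in capitals, at chr11:83065033-83065093 for Slfn2, chr11:83116722-83116782 for Slfn1, chr11:83175089-83175149 for Slfn4 and chr11:83191264-83191324 for Slfn3. Each of these windows held 1 match. Slfn5, Slfn8 and Slfn9 held none.
Slfn2: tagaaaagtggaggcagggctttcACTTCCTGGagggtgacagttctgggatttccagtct
Slfn1: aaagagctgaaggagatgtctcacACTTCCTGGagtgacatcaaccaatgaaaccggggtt
Slfn4: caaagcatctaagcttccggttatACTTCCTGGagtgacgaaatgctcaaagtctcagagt
Slfn3: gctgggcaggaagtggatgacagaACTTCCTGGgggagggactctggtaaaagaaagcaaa

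Each value below rests on 1 library per group, so there is no replicate check. The steps in low FPKM values gave an estimated 9.61e+06 fragments in genes with probucol and 9.62e+06 untreated. Intervals in parentheses are 95% counting intervals from the estimated fragments of each gene. They cover counting error only. Copies made by PCR count among the fragments and are not allowed for, so the intervals can be too narrow. T cell genes were close in both libraries: the 7 measured T cell markers summed to 4187 FPKM in the probucol library and 4227 FPKM in the untreated one, with Cd4 at 334 and 284 FPKM. More symbols were above 0 untreated (16876) than with probucol (14289). Of 10663 genes at a mean of 1 FPKM or more, 173 (1.62%) were at least 2-fold higher with probucol and 211 (1.98%) at least 2-fold lower, on the log2 scale of FPKM + 1. The median log2 ratio of those genes was 0.017.

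Of the 7 members, 6 reached the mean of 1 FPKM; Slfn4 did not. Slfn8 was at least 2-fold higher (1 of 6, where 1.62% of all compared genes were), and 0 of 6 were at least 2-fold lower, where 1.98% of all were. The other 5 were lower with probucol by less than 2-fold, where 47.3% of all compared genes were lower and 52.7% higher. The median log2 ratio of the 6 was -0.17, with a range from -0.35 to 1.40. Their comparison was the one the members were chosen from, so nothing is read from these counts.

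**Figure D1:**
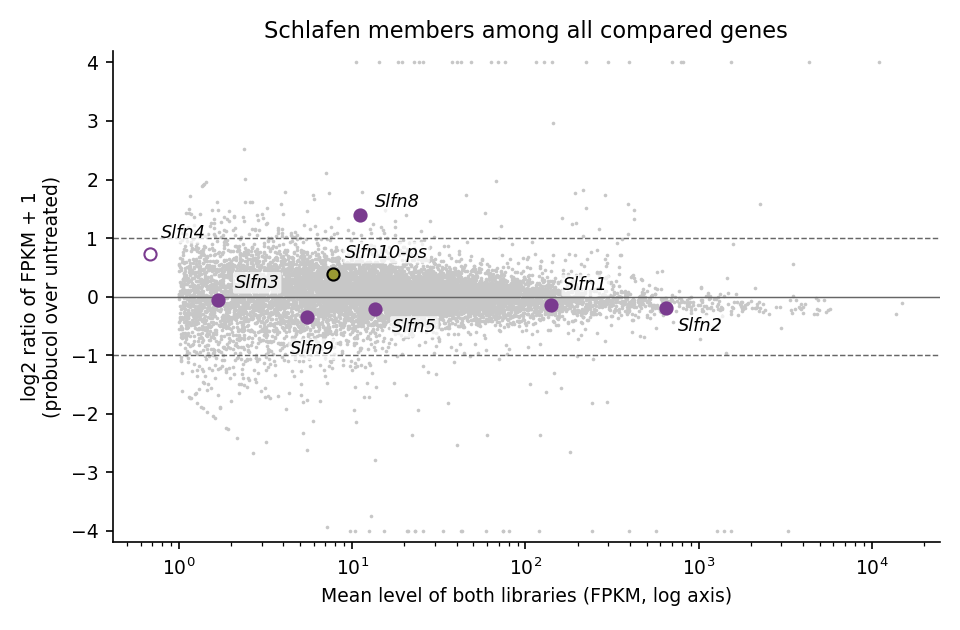
Log2 ratio of FPKM + 1 (probucol over untreated) against the mean FPKM of both libraries on a log axis, for 10663 compared genes (grey). Schlafen members are purple, Slfn4 is an open circle because it fell under the mean of 1 FPKM, Slfn10-ps is olive, dashed lines mark 2-fold, and 50 genes beyond 4 on the log2 axis are drawn at its edge. Slfn8 sits at 1.40 and the other filled purple points between -0.35 and -0.063.

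Slfn2 dominated the family. It was at 602 FPKM in the probucol library (590 to 615) and 688 FPKM in the untreated one (674 to 701), rank 176 and rank 162 of all symbols. It made up 78.0% of the summed FPKM of the 7 members with probucol and 79.7% untreated. The level was 1.14-fold lower with probucol (1.11 to 1.18), a log2 ratio of -0.19.

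Slfn1, the other short form, which slows the growth of thymocytes when overexpressed in mice, was second in both libraries. It stood at 133 FPKM in the probucol library (127 to 139) and 147 FPKM in the untreated one (141 to 153), 1.11-fold lower (1.04 to 1.17). The balance of both short forms was nearly the same, with 4.53 times as much Slfn2 as Slfn1 with probucol and 4.68 times untreated. Their summed level was 735 and 835 FPKM.

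The long forms differed from each other in direction. Slfn8 was at 16.5 FPKM in the probucol library (15.1 to 18.0) and 5.67 FPKM in the untreated one (4.86 to 6.57), on about 511 and 175 fragments. That is 2.92-fold higher with probucol (2.45 to 3.49). By the log2 ratio of FPKM + 1 it had rank 70 from the top among 10663 genes. Slfn9, its near copy, was at 4.70 FPKM in the probucol library (4.09 to 5.36) and 6.24 FPKM in the untreated one (5.54 to 7.01), 1.33-fold lower (1.11 to 1.59). Slfn5, which in human cells has been described as a nuclear regulator of interferon-responsive transcription, was at 12.5 FPKM in the probucol library (11.5 to 13.6) and 14.6 FPKM in the untreated one (13.5 to 15.8), 1.17-fold lower (1.04 to 1.32). Slfn8 thus had the highest value of the long forms with probucol and the lowest untreated, where its interval overlapped that of Slfn9. There were 3.52 times as much Slfn8 as Slfn9 with probucol and 0.908 times untreated.

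**Figure D2:**
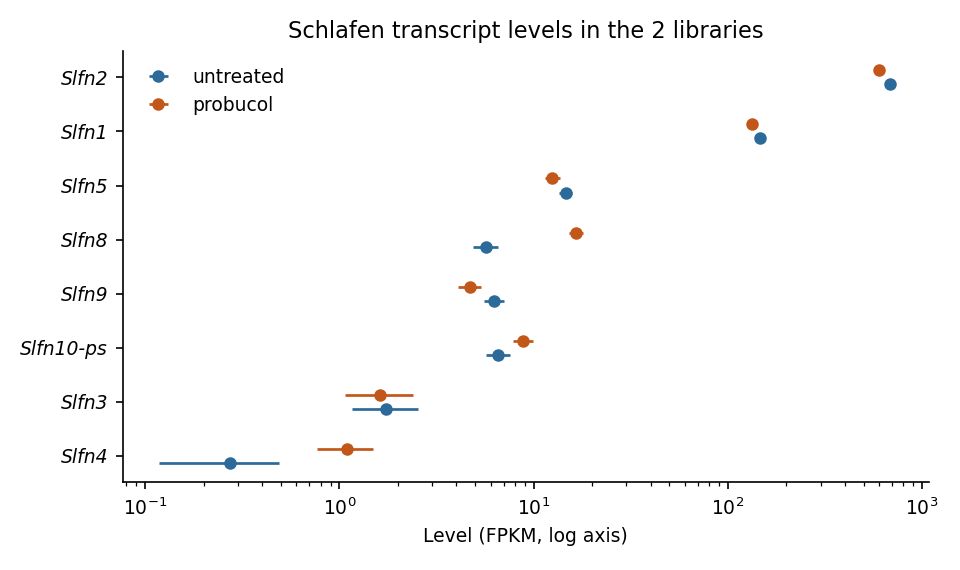
Level of each Schlafen gene in FPKM on a log axis, with probucol (orange) and untreated (blue), 1 library each; bars are 95% counting intervals. The points of Slfn8 (16.5 and 5.67 FPKM) and Slfn4 (1.10 and 0.272 FPKM) lie furthest apart, and those of Slfn3 overlap.

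The intermediate forms were near the lower end of what these libraries could measure. Slfn3, which has been described as a marker of regulatory CD4+ T cells in mice, was at 1.62 FPKM in the probucol library (1.06 to 2.38) and 1.74 FPKM in the untreated one (1.16 to 2.52). Its fragments were estimated from the 1 transcript in the basic set, 1816 bp long; the coding sequence of 1920 bp above belongs to a transcript outside that set. On about 26 and 28 fragments its ratio was 0.932 (0.525 to 1.65), so a difference was not detectable at this depth. Slfn4, known from myeloid cells, was at 1.10 FPKM in the probucol library (0.771 to 1.50) and 0.272 FPKM in the untreated one (0.118 to 0.490). Its ratio of 4.03 (2.01 to 9.92) rests on about 38 and 9 fragments. The log2 ratio of FPKM + 1 was 0.72, since the added 1 understates changes of low genes.

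In order of level with probucol came Slfn2, Slfn1, Slfn8, Slfn5, Slfn9, Slfn3 and Slfn4. Untreated the order was Slfn2, Slfn1, Slfn5, Slfn9, Slfn8, Slfn3 and Slfn4. The counting intervals of Slfn3 and Slfn4 overlapped with probucol, as did those of Slfn9 and Slfn8 untreated; other neighbouring members in each order did not overlap. Summed over the 7 members the level was 772 FPKM in the probucol library and 863 FPKM in the untreated one, 1.12-fold lower (1.09 to 1.15), a sum set mainly by Slfn2. The long forms summed to 33.7 and 26.5 FPKM, giving a ratio of 1.27 (1.17 to 1.38). Of these only Slfn8 was higher with probucol, while Slfn5 and Slfn9 were lower. The intermediate forms summed to 2.72 and 2.01 FPKM.

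Reads of near-identical genes can be split between copies, so the members' transcripts were compared with all GENCODE transcripts. For Slfn8, 14.6% of its 50-base windows also occurred in another gene, namely in Slfn9 or Slfn10-ps. For Slfn9 the share was 11.9%, mostly in the same relatives, and for Slfn10-ps it was 19.7%. With 100-base windows these shares were 3.38%, 3.71% and 7.84%. The read length is not given in the sources used here. Slfn10-ps was at 8.83 FPKM in the probucol library and 6.55 FPKM in the untreated one, 1.35-fold higher (1.11 to 1.63). Slfn8, Slfn9 and Slfn10-ps together summed to 30.1 FPKM in the probucol library and 18.5 FPKM in the untreated one. How far the split of reads between these copies set the Slfn8 and Slfn9 values was not tested.

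Slfn3 and Slfn4, identical at 94.8% of 1649 aligned coding bases, shared 7.39% of the Slfn3 windows and 6.28% of the Slfn4 windows of 50 bases with each other. Counting any other gene, 15.99% of the 50-base Slfn3 windows occurred elsewhere, the largest such share of any member. For Slfn4 that share was 11.30%. With 100-base windows the shares were 2.92% for Slfn3 and 0.271% for Slfn4. In Slfn2 4.27% of windows and in Slfn1 0.606% occurred elsewhere. Of the Slfn5 windows 11.1% did, the largest part in the antisense RNA Slfn5os, which was listed at 0 with probucol and at 0.546 FPKM untreated, on about 2 fragments. Of the Slfn5 windows 7.38% and of the Slfn5os windows 45.5% occurred in the other gene. No strand-specific counting is stated, so reads of that shared part cannot be told apart; 88.9% of the Slfn5 windows were unique to it.

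**Figure D3:**
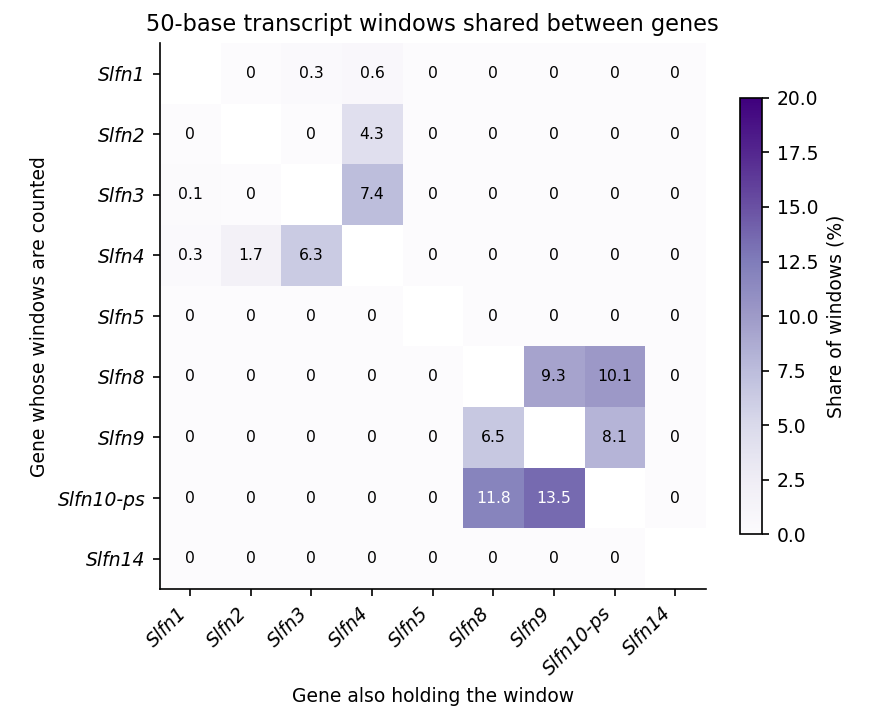
Share of the 50-base windows in the transcripts of each row gene that also occur in transcripts of the column gene, in percent. Among the genes drawn, which leave out Slfn5os, Slfn8, Slfn9 and Slfn10-ps share windows with each other; Slfn4 shares 6.28% of its windows with Slfn3, 1.72% with Slfn2 and 0.274% with Slfn1, and Slfn3 shares none with Slfn2.

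The neighbouring genes given here that had enough fragments for a ratio lay between 0.490 and 1.40, on the scale where Slfn8 was at 2.92. Beside the cluster, the DNA repair gene Rad51d was at 8.75 FPKM in the probucol library and 11.2 FPKM in the untreated one, a ratio of 0.781 (0.581 to 1.04), and the ribosome assembly gene Nle1 at 13.6 and 9.67 FPKM, giving a ratio of 1.40 (1.13 to 1.73). On the other side, Ap2b1, a subunit of the clathrin adaptor, was at 14.3 and 12.4 FPKM, giving a ratio of 1.15 (1.01 to 1.32). The short noncoding AA465934 was the furthest apart of the neighbours, at 131 and 267 FPKM, 2.04-fold lower (1.71 to 2.45). Inside the cluster, AI662270 was at 63.5 and 59.5 FPKM, giving a ratio of 1.07 (0.887 to 1.29). Fndc8, Unc45b and Rasl10b were below 0.3 FPKM in both libraries. Of the other Schlafen symbols, Slfn14, whose human counterpart is a ribosome-bound nuclease linked to platelet disorders, was at 0.0573 FPKM with probucol on about 2 fragments and listed at 0 untreated. Slfnl1, on chromosome 4, was at 0.194 FPKM on about 3 fragments and listed at 0 untreated. Such numbers allow no fold.

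**Figure D4:**
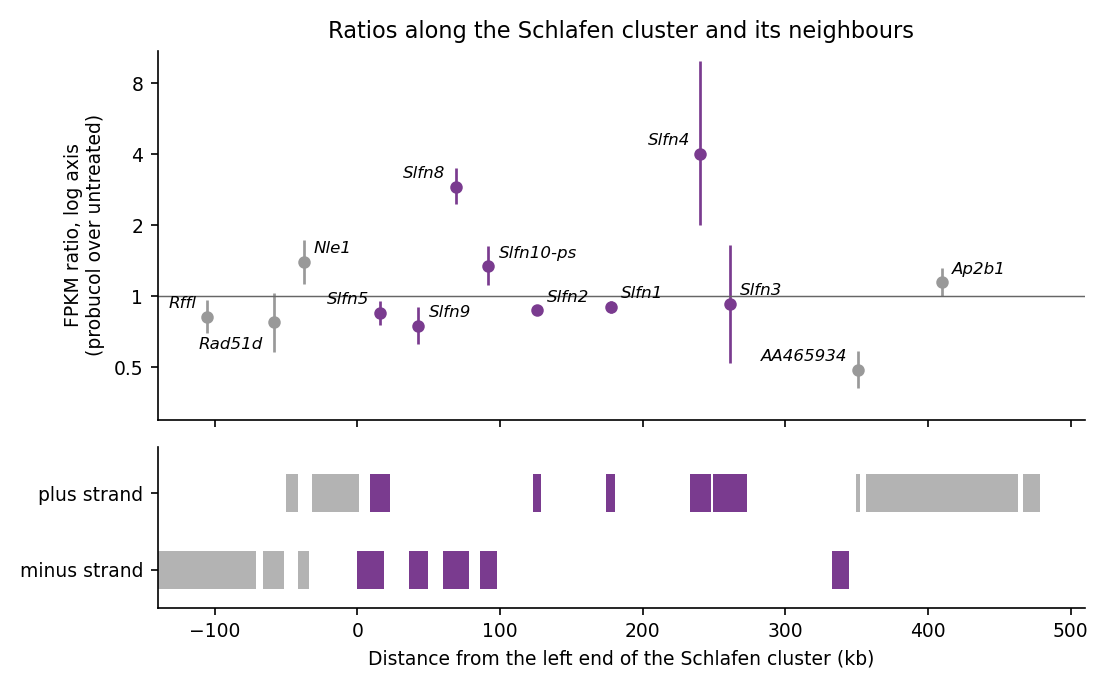
Upper panel, FPKM ratio (probucol over untreated, log axis) with its 95% counting interval for genes with more than 8 estimated fragments in a library, Schlafen genes in purple and selected neighbours in grey, placed at the gene's middle. Lower panel, gene spans by strand in kb from the left end of the 344 kb cluster; Slfn8 stands at 2.92 between Slfn9 at 0.753 and Slfn10-ps at 1.35.

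Because several Schlafen genes respond to interferon, other interferon genes were read beside them. Among 31 measured type I interferon targets 24 were lower and 7 higher with probucol, with a median log2 ratio of -0.33 beside 0.017 over all compared genes. Of these, 4 were at least 2-fold lower and 1 at least 2-fold higher. Over all compared genes 47.3% were lower, 1.98% at least 2-fold lower and 1.62% at least 2-fold higher. The list was chosen with earlier results of these data known, so nothing is read from its counts. The antiviral genes Rsad2 (0.981 and 3.66 FPKM) and Ifit3 (4.09 and 10.6 FPKM) were 3.73-fold (2.54 to 5.56) and 2.59-fold lower (1.93 to 3.55). Oas2, a synthetase of the second messenger that activates RNase L, was the 1 target at least 2-fold higher, at 4.85 and 1.20 FPKM, 4.04-fold (2.93 to 5.82). Slfn8 had a log2 ratio of 1.40 and Oas2 of 1.41, against a range up to 0.51 in the other measured targets. The 12 interferon receptor and signalling genes had a median of -0.040, 3 higher and 9 lower, none past 2-fold. Irf7, a transcription factor that amplifies the response, had the lowest ratio of them, at 68.2 and 93.8 FPKM, 1.38-fold lower (1.27 to 1.48).

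Quiescence genes were split evenly, the setting in which Slfn2 is best known. Of 12 measured genes 6 were higher and 6 lower, none past 2-fold, with a median log2 ratio of 0.029. For this and the next lists, the shares over all compared genes were 52.7% higher and 47.3% lower. At least 2-fold higher were 1.62% and at least 2-fold lower 1.98%. Klf2, a factor of resting T cells, was at 190 and 242 FPKM, 1.27-fold lower (1.21 to 1.33), and Bach2, which restrains effector programmes, at 6.32 and 4.63 FPKM, 1.37-fold higher (1.19 to 1.56). Of 11 measured genes that drive or block cell cycle entry 4 were higher and 7 lower, with a median of -0.042. The list mixes both kinds, so these counts give no direction of entry. Cdkn2c, an inhibitor of the kinases that pair with D cyclins, was the 1 past 2-fold, at 6.01 and 18.4 FPKM, 3.06-fold lower (2.43 to 3.92). The cyclin gene Ccnd2 was at 219 and 170 FPKM, 1.29-fold higher (1.20 to 1.39). Of 8 genes that cut, mature or protect transfer RNA 2 were higher and 6 lower, none past 2-fold, with a median of -0.27. Among them Ang, the ribonuclease that cuts transfer RNA, was at 1.59 and 2.26 FPKM, giving a ratio of 0.702 (0.292 to 1.59), and Rnh1, its inhibitor, was at 76.6 and 87.3 FPKM, 1.14-fold lower (1.05 to 1.24).

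**Figure D5:**
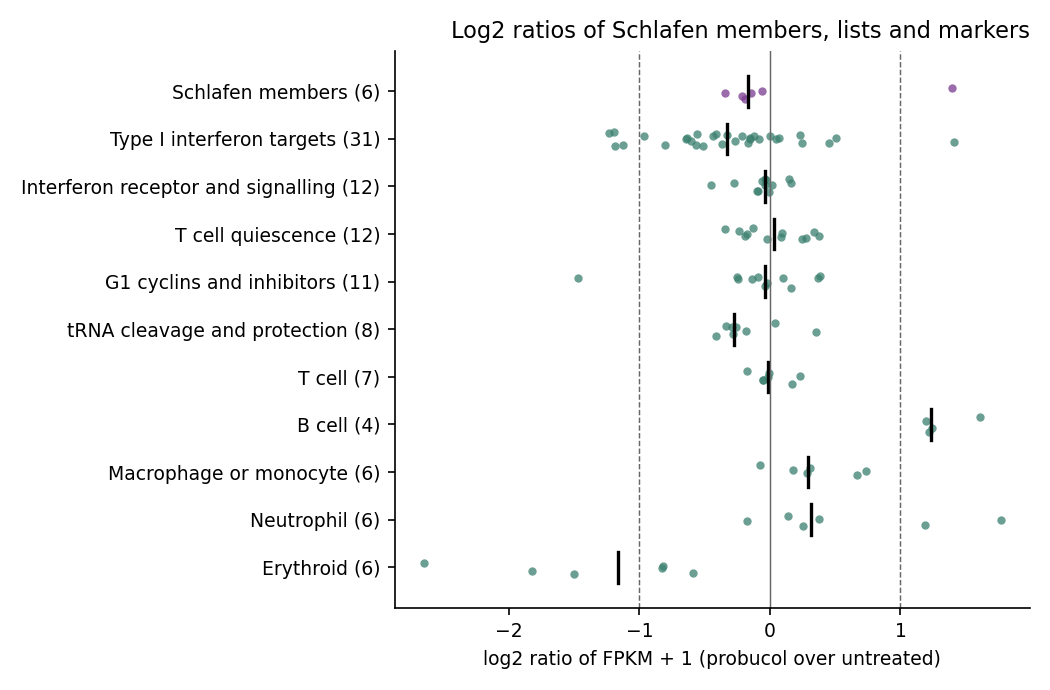
Log2 ratio of FPKM + 1 (probucol over untreated) for each gene at a mean of 1 FPKM or more, by list, with the number of genes in parentheses and a black line at the median. The Schlafen members have a median of -0.17 with Slfn8 at 1.40, the type I interferon targets a median of -0.33, and the B cell markers lie between 1.20 and 1.61.

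Markers of other cells moved with some members. B cell markers were higher with probucol, 4 of 4 measured at least 2-fold, where 1.62% of all compared genes were. Cd79a was at 20.7 and 8.48 FPKM, and the 5 listed genes summed to 51.9 and 19.5 FPKM. Pax5 was listed at 0 in both. Slfn8 moved in the same direction, from 5.67 to 16.5 FPKM, and the part of B cells in it was not tested. In sorted bulk samples, more cells of a type and more RNA per cell cannot be told apart. For Slfn4, the macrophage or monocyte markers summed to 155 and 153 FPKM, with 5 of 6 measured genes higher and Csf1r at 3.75 and 1.85 FPKM. Lyz2, which made up most of that sum, was the 1 lower, at 125 and 132 FPKM. The neutrophil markers summed to 949 and 837 FPKM, with 5 of 6 higher and Elane at 12.0 and 2.80 FPKM. S100a8, which made up most of that sum, was at 591 and 536 FPKM, and Camp was the 1 lower, at 47.7 and 54.1 FPKM. On the scale of FPKM + 1, 0 of the 6 macrophage or monocyte markers and 2 of the 6 neutrophil markers were at least 2-fold higher. Over all compared genes 52.7% were higher and 1.62% at least 2-fold higher. None of the measured markers of either list was at 0 in both libraries, and the part of myeloid cells in the Slfn4 value was not tested. Erythroid markers summed to 218 and 863 FPKM, all 6 lower, and 3 of them at least 2-fold lower on the scale of FPKM + 1. Of all compared genes 47.3% were lower and 1.98% at least 2-fold lower. The platelet markers summed to 4.78 and 2.68 FPKM. The natural killer markers summed to 5.07 and 8.58 FPKM, with Klrd1 lower at 1.22 and 6.22 FPKM, Ncr1, Klrb1c and Klre1 higher and Klra8 at 0 in both. The dendritic cell markers summed to 2.66 and 3.48 FPKM, with Xcr1 and Zbtb46 lower and the other 4 higher. Cd8a and Cd8b1 summed to 16.1 and 19.9 FPKM.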

How the data were processed

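The deposited tables hold FPKM per symbol, per the file headers. The submitters' processing notes list Cuffdiff 2.2.1, TopHat2 2.1.1 and Bowtie2, with mm10 as the build, and no role for each tool; which annotation and filters the authors applied is not given. Per the labels' protocols, SMART-Seq HT cDNA went into Nextera libraries, and no molecular identifiers are mentioned. Count models need counts and were not used; with 1 library per group no p-value was computed. The members and gene lists were chosen with earlier results of these data known.

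Log2 ratios were taken on FPKM + 1, over genes at a mean of 1 FPKM or more; printed folds are plain FPKM ratios. The worth of 1 fragment at 1 kb was fitted to the steps of low values of genes with 1 annotated transcript of 800 to 10000 bp (GENCODE M21 basic set). It was 0.0999 FPKM with probucol and 0.100 untreated, after subtracting 220 and 210 bp of length. Within 0.1 of a whole fragment lay 74.2% and 75.9% of these values, where 20% would by chance; the fit was tested on simulated data. Fragments per gene used the median transcript length, so intervals (Clopper-Pearson for ratios, exact Poisson for levels) are approximate for genes with several transcripts. Named genes were all Schlafen symbols, up to 3 genes per list in each direction, cell markers and up to 5 neighbours a side; for length not all are printed. Some listed genes and neighbours, Trac, Ly6g and Vsir among them, are not reported here. Analyses used Python 3.11.15, pandas 2.3.3, scipy 1.17.1 and Biopython 1.88.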

Additional observations from a re-analysis of the deposited data

How the results depend on the processing

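Among the members that passed each filter, Slfn8 was the 1 at least 2-fold higher under all 7 settings. These varied the pseudocount, filter, scaling, centring and genes at 0. Under each of them 0 members were at least 2-fold lower. The Slfn8 log2 ratio was 1.01 with pseudocount 5, and its rank from the top lay between 40 and 120. Slfn4 passed only where no filter was set, with a log2 ratio of 0.72 at pseudocount 1. No setting joined a smaller pseudocount with no filter, so the plain Slfn4 ratio of 4.03 does not enter this count. Slfn1, Slfn2, Slfn5 and Slfn9 were lower with probucol under each of these 7 settings. The members' median of -0.17 became 0.073 when the mean was taken instead, since 1 of the 6 values is that of Slfn8; without Slfn8, chosen after seeing the data, it was -0.19. Over all genes, 313 were at least 2-fold higher and 357 lower when 0.1 was added to FPKM. Adding 5 gave 55 and 64, and requiring a mean of 5 FPKM gave 83 and 96. With the longest transcript in place of the median length, the interval of the Slfn8 ratio was 2.50 to 3.42 and that of Slfn4 2.02 to 9.17. No paired analysis was possible because each group has 1 library. The median log2 ratio turned from -0.78 to 0.13 for the natural killer markers and from -0.52 to 0.18 for the dendritic cell markers when low values were kept. Depth limits Slfn3, Slfn4, Slfn14, Slfnl1 and Slfn5os, with at most 38 estimated fragments each in either library.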

Other observations

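Promoter letters and ratios can also be read over those of the 10663 compared genes that had a RefSeq promoter window, which not all had. Of these, 315 had the interferon-stimulated response element core of Slfn8, Slfn9 and Slfn5 in a RefSeq promoter window, and their median log2 ratio was 0.0030, against 0.021 for 7817 genes whose windows lacked it. At least 2-fold lower with probucol were 9 of the 315 genes with the core (2.86%) and 1.45% of those without. At least 2-fold higher were 4 of the 315 (1.27%), Slfn8 among them, and 1.28% of those without. For ACTTCCTGG, found in Slfn1, Slfn2, Slfn3 and Slfn4, 97 genes had a median of 0.012, against 0.020 for 8035 genes without it. At least 2-fold lower were 2 of the 97 (2.06%) and 1.49% of the others, and at least 2-fold higher 2 of the 97 (2.06%) and 1.27%. These are counts over 1 pair of libraries, and the differences between them were not tested.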
